A study of Mus musculus with 8 samples.

Results

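The genes described here were 9 enzymes of glycolysis, Hk2, Gpi1, Pfkl, Aldoa, Pgk1, Pgam1, Eno1, Pkm and Ldha, and the oxygen-sensing transcription factor Hif1a. They were chosen by name and are 10 of the 27998 genes of the count table. Their messages were counted in 29891 single KL cells, the bone marrow cells that carry c-Kit (CD117) and were sorted as negative for the lineage antigens CD3, CD4, CD8, CD45R, CD11b, TER119 and GR1. All mice were female C57BL/6 (B6) of 3 to 4 months. The SPF mice stayed in the specific-pathogen-free facility. The CVT mice were moved to a conventional facility and lived for 1 month with mice born there. Each group gave 4 pools of 2 or 3 mice, sequenced as 8 libraries of 3′ tags with unique molecular identifiers (UMIs). Pools 1 to 4 (set 1, mice numbered 1 to 10) and pools 5 to 8 (set 2, mice numbered 11 to 20) each held 2 SPF and 2 CVT pools. A pool, and not a cell, was the replicate, and cells were assigned to pools by the last number in their names, which was matched to the number in a sample's description and which nothing else in the labels checks. The study asked whether a month of co-housing altered the makeup and gene expression of KL cells.

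The pools held 1888 to 4845 cells and 19041749 to 59812346 UMIs, and the median cell had 7529.5 to 12771.5 UMIs depending on the pool. A total of 522 cell barcodes occurred in more than 1 pool. The deposited cells carried no type labels, so they were clustered without the 10 genes, their isozymes and the sugar and lactate transporters, and clusters were named from marker genes. Of all cells, 25576 fell in 10 classes with at least 20 cells in every pool, and 3927 stayed unnamed. The classes are called LTHSC-like (long-term stem cells, 1036 cells), MPP-like (multipotent progenitors, 2010), LMPP-like (lymphoid-primed, 1993), CMP-like (common myeloid, 3775), MEP-like (megakaryocyte-erythroid, 5328), GMP-like (granulocyte-monocyte, 1243), megakaryocyte-like (2313), monocyte-like (5523), late granulocyte-like (1661) and basophil or mast-like (694). The MEP-like clusters were named from erythroid markers such as Car1, Klf1 and Epor, and clusters with megakaryocyte markers formed a class of their own. The name MEP-like thus stands for cells of the erythroid side and does not imply that they form both lineages. Some of the monocyte-like clusters were also led by the granule genes Elane, Mpo or Ctsg, and late granulocyte-like cells were present although the sort gated out GR1.

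Glycolysis splits glucose into pyruvate in 10 enzymatic steps and yields a little ATP without oxygen. Hexokinase traps glucose in the cell, phosphofructokinase commits it to the pathway, and pyruvate kinase makes the last ATP. Lactate dehydrogenase turns pyruvate into lactate and so restores the NAD+ that the pathway uses. HIF-1α, the product of Hif1a, is destroyed when oxygen is plentiful and accumulates when it is scarce. It then binds short DNA cores such as ACGTG beside genes of this pathway. Stem cells of the marrow are known for relying on glycolysis, and HIF-1α is one of the factors tied to that. The level of its message does not show how much of the protein is present.

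The count table holds no coordinates. In the GRCm38 assembly (GENCODE M21 annotation) the 10 genes are protein-coding and lie apart. On the minus strand are Hk2 at chr6:82725025-82774454, Gpi1 at chr7:34201330-34230336, Pfkl at chr10:77986947-78010083 and Aldoa at chr7:126795234-126800751. On the plus strand are Pgk1 at chrX:106187100-106203699, Pgam1 at chr19:41911923-41918660, Eno1 at chr4:150236721-150248879, Pkm at chr9:59656368-59679375, Ldha at chr7:46841475-46855627 and Hif1a at chr12:73901375-73947530. RefSeq (GRCm38.p6) gave 16 promoter windows for them, each from 250 bases before to 50 bases after a transcription start. The 4 windows shown here belong to the genes on which the results across cell classes turn: Ldha, which was high in MEP-like cells where most other enzymes were low, Pkm and Pgam1, which varied most, and Hif1a. Capitals mark ACGTG or its reverse complement CACGT, and each window is read along its gene.
Ldha promoter, chr7:46845554-46845853, plus strand: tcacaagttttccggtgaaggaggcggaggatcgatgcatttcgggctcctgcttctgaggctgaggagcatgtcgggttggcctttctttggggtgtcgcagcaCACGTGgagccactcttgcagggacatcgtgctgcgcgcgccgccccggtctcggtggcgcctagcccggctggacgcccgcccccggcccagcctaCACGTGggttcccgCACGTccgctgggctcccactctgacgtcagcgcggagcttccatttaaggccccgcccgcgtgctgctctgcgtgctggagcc
Pkm promoter, chr9:59656977-59657276, plus strand: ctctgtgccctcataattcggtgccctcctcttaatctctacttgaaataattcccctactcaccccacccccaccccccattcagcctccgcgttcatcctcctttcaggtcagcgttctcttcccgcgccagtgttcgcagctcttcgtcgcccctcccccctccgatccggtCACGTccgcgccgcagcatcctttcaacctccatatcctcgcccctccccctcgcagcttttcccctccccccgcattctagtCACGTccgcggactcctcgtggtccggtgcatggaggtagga
Pgam1 promoter, chr19:41911621-41911920, plus strand: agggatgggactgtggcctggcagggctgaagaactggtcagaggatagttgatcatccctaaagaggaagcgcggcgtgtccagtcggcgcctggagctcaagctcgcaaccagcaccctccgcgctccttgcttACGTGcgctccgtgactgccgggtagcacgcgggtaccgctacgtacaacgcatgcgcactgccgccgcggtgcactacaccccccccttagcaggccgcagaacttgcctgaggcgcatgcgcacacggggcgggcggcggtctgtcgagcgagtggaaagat
Hif1a promoter, chr12:73907617-73907916, plus strand: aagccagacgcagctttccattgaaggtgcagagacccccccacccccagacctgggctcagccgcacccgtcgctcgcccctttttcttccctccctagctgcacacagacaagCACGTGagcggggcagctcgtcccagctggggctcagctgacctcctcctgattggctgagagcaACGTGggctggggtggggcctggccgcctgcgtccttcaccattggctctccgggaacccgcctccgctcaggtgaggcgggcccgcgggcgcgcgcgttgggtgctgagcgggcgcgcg
The Ldha window held 5 matches in 3 places, because CACGTG, the E-box core, counts once on each strand. The Hif1a window held 3 matches and the Pkm window 2, while the Pgam1 window held 1. Counting a gene once, 7 of the 10 genes had the core in some window: the 4 above, Hk2, Pgk1 and Aldoa. Over all 27025 genes with such windows, 21.8% had it. Windows of Eno1, Gpi1 and Pfkl held neither ACGTG nor CACGT, and variants of the core such as GCGTG were not searched. A second Ldha window and another Pkm window also held none and are not shown. A match is a string of letters and no evidence that a factor binds there.

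The 9 enzymes were read most in the GMP-like cells and least in the MEP-like and CMP-like cells. Levels are given as CPM, the UMIs of a gene in each 1000000 UMIs of the class in a pool. A tag comes from the 3′ end of a transcript, so CPM was not divided by gene length. In the GMP-like cells the enzymes together made up 3229 ± 258 CPM (mean ± SD over 8 pools), in the monocyte-like cells 2852 ± 208 and in the late granulocyte-like cells 2675 ± 190. The MPP-like cells followed with 2394 ± 247 CPM. Megakaryocyte-like, basophil or mast-like, LMPP-like and LTHSC-like cells lay between 1932 and 2017 CPM, and none of these neighbours in the order differed in every pool. CMP-like cells had 1504 ± 115 CPM and MEP-like cells 1444 ± 167, also without a difference in every pool. GMP-like cells were highest in all 8 pools, and their level was 2.24 times that of the MEP-like cells (2.11 to 2.48 in single pools). These differences between classes are descriptions without a test, because all classes came from the same 8 libraries and were drawn from the same cells.

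Both the unit and the denominator bear on this order. The median MEP-like cell had 14720 UMIs and the median LTHSC-like cell 5465.5. Counted per cell, the enzymes gave 51.4 UMIs in a GMP-like cell, 42.7 in a monocyte-like cell, 24.0 in an MEP-like cell, 11.5 in an LTHSC-like cell and 8.66 in a CMP-like cell. MEP-like cells thus stood below LTHSC-like cells by CPM (0.75 times) and above them per cell (2.09 times). Ribosomal protein genes took 14.4% of the UMIs of late granulocyte-like cells and 35.3% to 39.4% in the other 9 classes. With mitochondrial, ribosomal protein and globin genes out of the denominator, the enzymes of late granulocyte-like cells stood at 0.97 times the LTHSC-like level, against 1.38 times with all genes. The GMP-like over MEP-like ratio was 2.16 with this denominator.

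**Figure D1:**
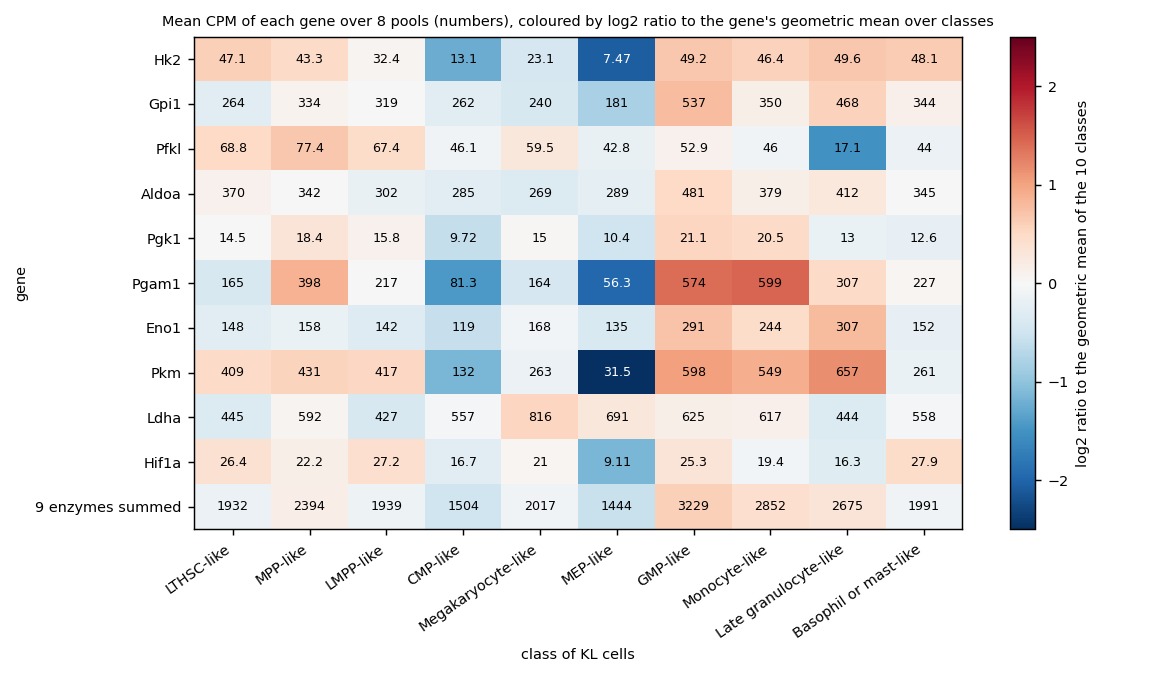
Mean level in CPM over 8 pools (numbers in the cells) of each gene and of the 9 enzymes summed in 10 classes of KL cells; colour is the log2 ratio to the gene's geometric mean over the classes. Pkm, Pgam1, Hk2, Gpi1 and Hif1a were lowest in MEP-like cells, whereas Ldha was at 691 CPM there.

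The enzymes did not move as a block, and the MEP-like cells parted them most. Pkm, which encodes the pyruvate kinase of most tissues, had a median of 691 CPM over the pools of late granulocyte-like cells (551 to 703) and of 31.0 CPM in MEP-like cells (22.4 to 42.8). The ratio of means was 20.8, with 16.2 to 31.4 in single pools, and the pools of these classes did not overlap. Pkm was also low in CMP-like cells (median 136 CPM, 107 to 146), while LTHSC-like, LMPP-like and MPP-like cells had means of 409 to 431 CPM that did not differ in every pool. With the reduced denominator GMP-like cells were highest and the ratio to MEP-like cells was 18.2.

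Pgam1, the phosphoglycerate mutase that shifts the phosphate before the enolase step, had its highest levels in monocyte-like cells (median 609 CPM, 525 to 636) and GMP-like cells (571 CPM, 514 to 650). It was far lower in CMP-like cells (82.8 CPM, 64.2 to 94.7) and MEP-like cells (58.2 CPM, 45.9 to 64.6). Monocyte-like cells had 10.6 times the MEP-like level (9.35 to 13.1 in single pools). Bpgm, an erythroid enzyme of the same protein family, was looked up after these values were seen. It had 21.3 ± 11.8 CPM in MEP-like cells (12.1 to 48.7 in single pools), 24.7 ± 4.28 in CMP-like cells and 12.1 ± 1.17 in monocyte-like cells. Its highest means were those of basophil or mast-like (34.3 ± 12.1 CPM) and LTHSC-like cells (31.2 ± 7.75 CPM), so it was not particular to MEP-like cells.

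Hk2, an inducible hexokinase, was also lowest in MEP-like cells, with a median of 7.35 CPM (4.59 to 11.2) against 50.2 CPM in late granulocyte-like cells (38.5 to 65.2). Its mean lay between 43.3 and 49.6 CPM in 6 classes, LTHSC-like cells among them, and the neighbours among these 6 did not differ in every pool. Gpi1, which isomerizes glucose 6-phosphate to fructose 6-phosphate, was highest in GMP-like cells in all 8 pools (median 551 CPM, 425 to 659) and lowest in MEP-like cells in all 8 (190 CPM, 142 to 208).

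Ldha took a different course from Pkm and Hk2. It was highest in megakaryocyte-like cells in all 8 pools (median 812 CPM, 704 to 924). MEP-like cells came next (695 CPM, 543 to 832), although GMP-like cells were higher than they in 1 pool. LMPP-like (mean 427 CPM), late granulocyte-like (444 CPM) and LTHSC-like cells (445 CPM) had the least and were not told apart. With all genes in the denominator the whole span of Ldha was 1.91-fold, far below the 20.8-fold of Pkm and the 10.6-fold of Pgam1. Over the 80 sums of class and pool, log2 levels of Ldha and Pkm had a Pearson r of -0.32, while Pgam1 and Pkm had 0.86 and Hk2 and Pkm 0.84. Ldha and Hk2 had -0.31, Ldha and Gpi1 -0.18 and Ldha and Pfkl 0.25. The sums of a pool share a library, so these correlations carry no test.

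Pfkl, the liver-type phosphofructokinase, had its low point in late granulocyte-like cells, where it was lowest in all 8 pools (median 17.2 CPM, 10.8 to 22.4). It was highest in MPP-like cells in 7 of 8 pools (80.05 CPM, 57.0 to 91.6). LTHSC-like (68.8 CPM) and LMPP-like cells (67.4 CPM) did not differ from each other in every pool. The MPP-like level was 4.52 times the late granulocyte-like level, and 6.38 times with the reduced denominator. Pfkl, too, ran apart from several members, and its r was -0.39 with Eno1, the lowest of any pair of members, -0.21 with Gpi1, -0.10 with Aldoa and 0.02 with Pkm.

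Aldoa, the main aldolase, varied least, from 269 ± 28.2 CPM in megakaryocyte-like to 481 ± 43.7 CPM in GMP-like cells, a 1.79-fold span. Eno1, the ubiquitous enolase, ran from 119 ± 11.3 CPM in CMP-like to 307 ± 32.7 CPM in late granulocyte-like cells, although GMP-like cells were highest with the reduced denominator. Pgk1, which makes the first ATP of the pathway, was read at only 9.72 ± 2.25 CPM in CMP-like to 21.1 ± 5.56 CPM in GMP-like cells, and no neighbours in its order differed in every pool. Near-identical copies may draw reads from these 3 genes: the pseudogene Pgk1-rs7 had 5.32% of the UMIs of the Pgk1 pair, Eno1b 1.44% of the Eno1 pair, and Aldoart1 0.0409% and Aldoart2 0.00909% of their pairs with Aldoa. How the counting shared or dropped such reads was not tested, so the levels of Pgk1, Eno1 and Aldoa are uncertain. The shares above do not bound that uncertainty, because reads dropped as ambiguous would be counted for neither gene of a pair. The steps without a member behaved differently from each other: Gapdh was highest in monocyte-like (1271 ± 144 CPM) and lowest in CMP-like cells (570 ± 59.5), whereas Tpi1 was lowest in late granulocyte-like cells (183 ± 31.5 against 382 ± 32.4 CPM in GMP-like cells).

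Shares among the 9 enzymes do not depend on the other genes of a class. They are not shares of the whole pathway, since Gapdh, Tpi1 and the isozymes are left out. Of the UMIs of the 9 enzymes, Ldha took 47.7% ± 2.11 in MEP-like cells, 40.4% ± 0.816 in megakaryocyte-like cells and 37.0% ± 0.968 in CMP-like cells. In the other 7 classes its share was between 16.6% and 27.9%. Pkm took 24.5% ± 1.06 in late granulocyte-like cells, 21.5% ± 0.774 in LMPP-like cells, 21.2% ± 0.959 in LTHSC-like cells and 2.20% ± 0.442 in MEP-like cells. Pgam1 took 21.0% ± 0.636 in monocyte-like cells and 3.91% ± 0.401 in MEP-like cells. The lowest Ldha share of any MEP-like pool (43.5%) was above the highest of any megakaryocyte-like pool (41.1%).

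**Figure D2:**
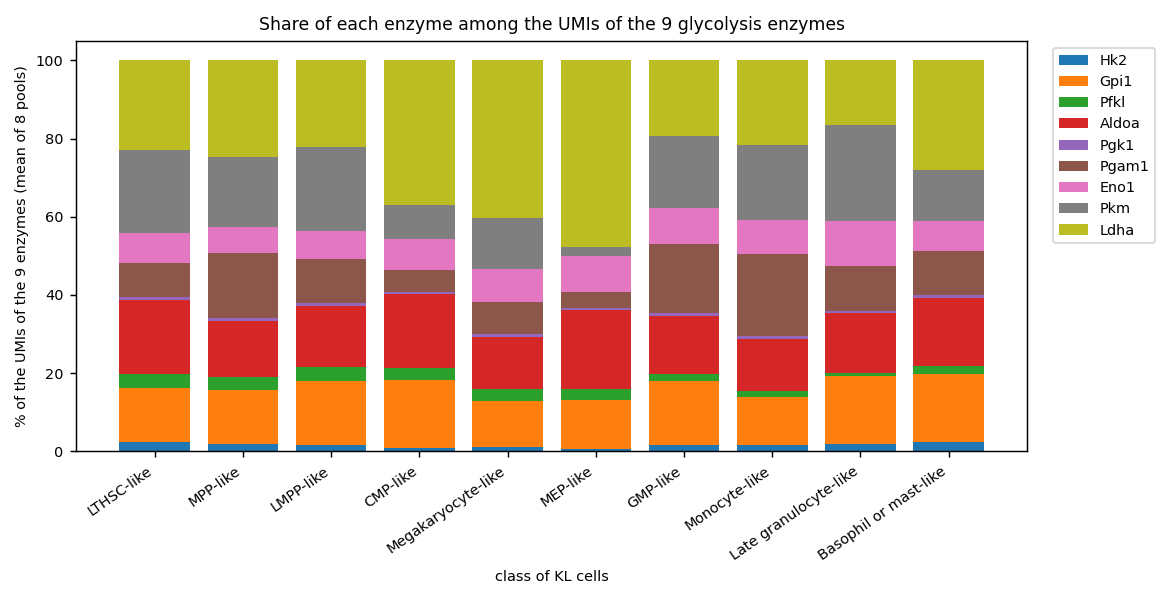
Share of each enzyme among the UMIs of the 9 enzymes (vertical axis, %, mean of 8 pools) in 10 classes of KL cells; each bar sums to the whole. The Ldha segment reaches 47.7% in MEP-like cells, where the Pkm segment shrinks to 2.20%.

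The isozymes that share a step with a member changed places between the classes. Among the hexokinases, Hk1, the housekeeping form, made up 92.0% ± 1.014 of the UMIs in MEP-like cells, 88.9% ± 4.08 in CMP-like cells and 77.8% ± 4.67 in megakaryocyte-like cells. Hk3, a form found in leukocytes, made up 52.5% ± 4.79 in late granulocyte-like, 51.2% ± 5.26 in GMP-like and 49.2% ± 3.06 in monocyte-like cells. Hk2 held 28.1% to 37.4% in 7 classes and 6.43% ± 1.32 in MEP-like cells. In MPP-like cells the 3 forms were close to even, at 36.4% Hk1, 29.1% Hk2 and 34.6% Hk3.

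For pyruvate kinase the MEP-like cells stood apart. Pklr, the form of liver and red cells, had 53.4% ± 8.11 of the pyruvate kinase UMIs there (36.8% to 62.5% in single pools), or 36.0 CPM beside 31.5 CPM of Pkm. CMP-like cells had 1.63% ± 1.05 of Pklr, and no other class had more than 0.25%. The sum of both genes in MEP-like cells was still below the Pkm level of every other class.

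For lactate dehydrogenase, Ldhb, the heart-type subunit, had 25.0% ± 2.15 of the UMIs in LTHSC-like cells and 16.4% ± 2.51 in LMPP-like cells. It had 5.41% ± 0.904 in MPP-like cells and 0.568% ± 0.168 in MEP-like cells. The lowest pool of LTHSC-like cells (22.0%) was above the highest pool of LMPP-like cells (20.5%). LTHSC-like cells also held the most Aldoc, the brain-type aldolase, at 6.04% ± 2.67 of aldolase UMIs, against at most 2.22% in the other classes.

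Of the phosphofructokinases, Pfkl stayed the most frequent form in every class by its mean (51.3% to 73.8%). Pfkp, the platelet-type form, reached 41.0% ± 10.3 in late granulocyte-like, 39.7% ± 3.74 in GMP-like and 38.1% ± 1.14 in monocyte-like cells, and 26.2% ± 2.72 in megakaryocyte-like cells. Pfkm, the muscle-type form, was highest in MEP-like cells with 30.5% ± 2.88. Low shares can also come from free RNA of other cells, and its part in these values was not tested.

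**Figure D3:**
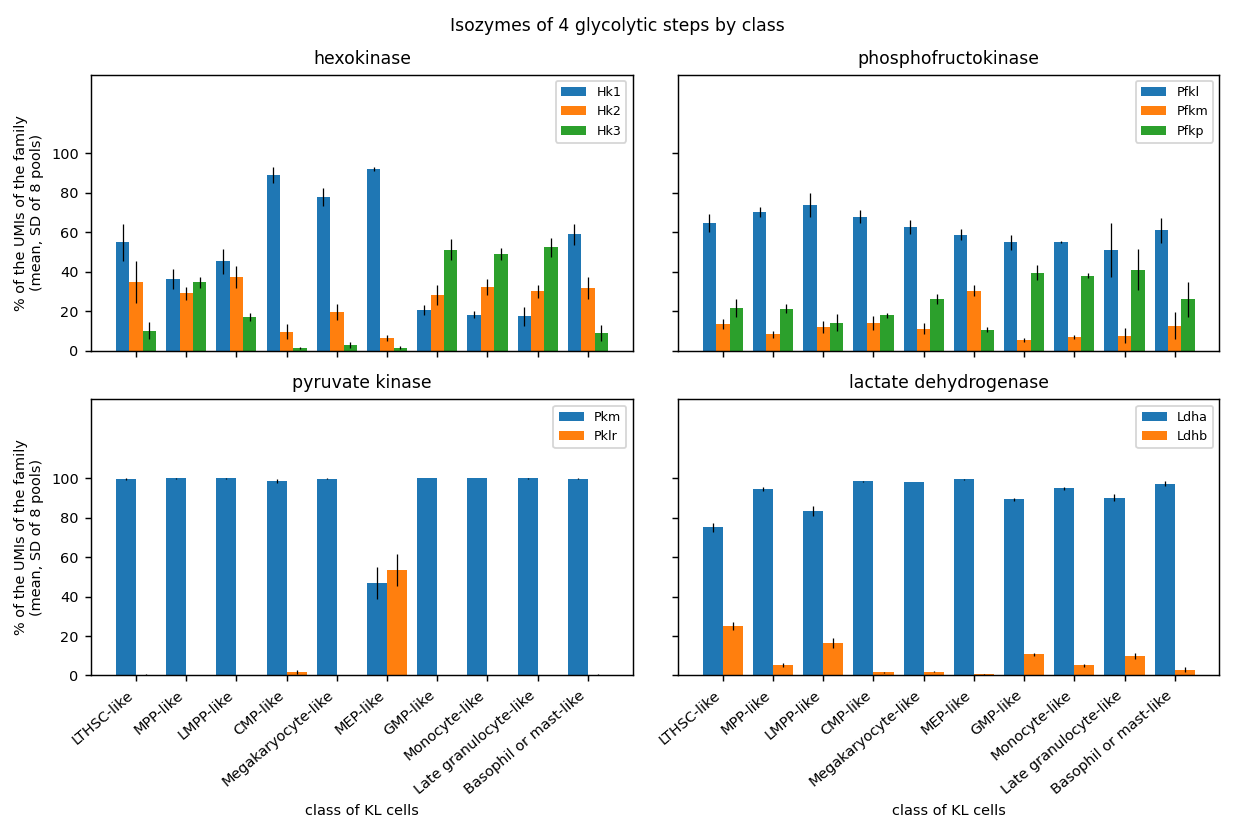
Share of each isozyme among the UMIs of its family (vertical axis, %; bars are means and lines SDs over 8 pools) at 4 steps of glycolysis, in 10 classes of KL cells. Hk1 dominates in CMP-like and MEP-like cells and Hk3 in the GMP-like, monocyte-like and late granulocyte-like cells, Pklr appears in MEP-like cells and Ldhb reaches 25.0% in LTHSC-like cells.

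Hif1a was a scarce message, with 0.0958 UMIs in a CMP-like cell and 0.398 in a GMP-like cell on average. It was lowest in MEP-like cells (median 9.04 CPM, 7.13 to 10.8) in 6 of 8 pools. The highest mean was that of basophil or mast-like cells (27.9 ± 7.58 CPM), followed by LMPP-like (27.2 ± 4.79), LTHSC-like (26.4 ± 12.5) and GMP-like cells (25.3 ± 3.64), and none of these neighbours differed in every pool. Basophil or mast-like cells had 3.06 times the MEP-like level (2.26 to 4.01 in single pools). The LTHSC-like level rested on few counts: pool 4 had 1 UMI of Hif1a there and pool 8 had 52. Of the oxygen sensors and partners of HIF, Egln3, a prolyl hydroxylase that marks HIF-1α for destruction, ran from 25.4 CPM in MPP-like to 0.516 CPM in MEP-like cells. Vhl and Arnt, the partner of HIF-1α on DNA, had their highest mean in LTHSC-like cells (13.2 and 12.5 CPM) without clear separation from the lowest class. Epas1, which encodes HIF-2α, was near 0 in every class (at most 0.936 CPM).

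Transporters and neighbouring pathways also had their own class patterns, and the examples here were chosen after their values were seen. Slc2a1, a glucose importer, was highest in LTHSC-like cells (15.2 ± 2.84 CPM) and Slc2a3, another, in late granulocyte-like cells (47.1 ± 11.6 CPM). The lactate exporter Slc16a3 was highest in late granulocyte-like cells (45.8 ± 10.2 CPM), and Slc16a1, which carries lactate and pyruvate, in MEP-like cells (58.5 ± 3.41 CPM). Pdk1, an HIF target, was highest in LMPP-like cells (59.5 ± 6.65 CPM). Of the 8 listed genes of the pentose phosphate pathway, 5 (G6pdx, Pgd, Rpe, Tkt and Taldo1) had their highest mean in late granulocyte-like cells. Pgls was highest in monocyte-like (479 ± 31.8 CPM) and Rpia in MEP-like cells (171 ± 14.6 CPM), while H6pd (11.9 ± 8.08 CPM in LTHSC-like cells) overlapped between its highest and lowest class over the 8 pools. The other 7 and the 5 genes named before them did not overlap. With the reduced denominator G6pdx, Pgd and Slc16a3 stayed highest in late granulocyte-like cells, but Rpe and Tkt were highest in GMP-like, Taldo1 in basophil or mast-like and Slc2a3 in LTHSC-like cells.

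Among 2485 genes of at least 50 CPM on average, the closest course over the 80 sums was that of Arpc1b for Pkm (Pearson r = 0.96), Prtn3 for Pgam1 (0.96), Shfm1 for Eno1 (0.92), Hadh for Pfkl (0.89), Actr3 for Gpi1 (0.87), Fam107b for Hk2 (0.86), Eif4e for Ldha (0.82), Alas1 for Aldoa (0.80) and Ost4 for Pgk1 (0.57). Likeness was measured on log2(CPM + 10). Tmem59 (0.73), Arhgap15 (0.72) and Fxyd5 (0.69) were closest to Hif1a. The 9 enzymes summed ran closest to Prtn3 (0.91), a granule protease of myeloid progenitors, then Hexa (0.90) and Actr3 (0.89).

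Cells in cycle were compared with the others after each cell was thinned to 2759 UMIs, the total of the smallest cell, with a UMI of Mki67 or Top2a as the mark of cycling. The enzymes summed were lower in marked than in unmarked cells in megakaryocyte-like (0.88 times, lower in 8 of 8 pools) and MEP-like cells (0.91 times, lower in 8 of 8). They were higher in marked LMPP-like cells (1.11 times, higher in 8 of 8). In the other 7 classes the ratio was 0.95 to 1.11 with a mixed direction. Of the 100 pairs of single gene and class, 6 went one way in all 8 pools. Aldoa was lower in marked megakaryocyte-like (0.54 times), basophil or mast-like (0.72 times) and MEP-like cells (0.81 times), and Gpi1 in marked MEP-like cells (0.84 times). Ldha was higher in marked monocyte-like cells (1.17 times) and lower in marked late granulocyte-like cells (0.84 times). Marked and unmarked cells also came from different clusters. The megakaryocyte-like cells formed one cluster with 93.7% of its 693 cells marked and another with 21.4% of its 1620 cells marked, and the share ran from 17.7% to 83.9% in the 4 larger MEP-like clusters. Within the larger megakaryocyte-like cluster the enzymes of marked cells stood at 1.03 times the unmarked level (lower in 2 of 8 pools), against 0.88 times over the whole class, while Aldoa was still at 0.73 times (lower in 8 of 8). In the smaller one, where few cells were unmarked, the enzymes stood at 0.83 times (lower in 5 of 8) and Aldoa at 0.64 times (lower in 6 of 8). In the 4 larger MEP-like clusters the ratio of the enzymes was 0.87 and 0.93 in the 2 with the most marked cells and at least 1.01 in the other 2. In the smallest MEP-like cluster, of 137 cells, it was 0.65 (lower in 4 of the 5 pools compared). Aldoa did not keep its order in 8 of 8 pools within the MEP-like clusters. It stood at 0.91, 0.86 and 0.71 times in those of 2223, 1216 and 814 cells (lower in 6 of 8 pools in each). In the cluster of 938 cells it stood at 1.09 times (lower in 2 of 8), and in the smallest at 0.43 times (lower in 3 of 5). The LMPP-like cells were a single cluster. This comparison within clusters was added after the data were seen. Unmarked cells include cycling cells whose marks were not read.

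The second question was whether co-housing changed these genes. In all KL cells no member passed an adjusted p of 0.05 between 4 CVT and 4 SPF pools (edgeR quasi-likelihood test, Benjamini-Hochberg adjustment), and percent called over all 13092 genes tested was 0. By unadjusted p under 0.05, 392 genes were higher and 529 lower in CVT pools. Other size factors turned this split to 493 higher and 464 lower, DESeq2 to 509 and 409, and equal class shares to 336 and 304. By adjusted p DESeq2 called 28 higher and 2 lower, no member among them. A sum over KL cells cannot tell a change in the share of a cell class from a change of the message within cells. GMP-like cells made up 5.06% ± 1.31 of the CVT and 2.76% ± 0.386 of the SPF pools, without overlap.

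Eno1 had 199, 177, 216 and 192 CPM in SPF pools 1, 2, 7 and 8 and 188, 160, 172 and 159 CPM in CVT pools 3 to 6. The groups overlapped by the values of pools 2 and 3. Its log2 fold change was -0.16 ± 0.080 (SE), with an edgeR adjusted p of 0.711 and an exact permutation p of 0.0571 (two-sided). The smallest p that 4 pools against 4 can give in the exact test is 0.0286. Hk2 had 35.6, 30.5, 31.1 and 35.5 CPM in the SPF and 26.6, 24.9, 32.4 and 27.1 CPM in the CVT pools. Only CVT pool 5 reached the SPF values, and the log2 fold change was -0.21 ± 0.087 with an edgeR adjusted p of 0.686. Hk2 was the only member under an unadjusted p of 0.05.

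Pgk1 had 16.4, 13.5, 23.1 and 15.3 CPM in the SPF and 16.5, 11.8, 14.2 and 12.6 CPM in the CVT pools. Its log2 fold change of -0.25 ± 0.17 leaned on SPF pool 7, without which it was -0.06. The log2 fold change was -0.13 ± 0.11 for Pfkl and -0.10 ± 0.082 for Hif1a, which had 18.95 ± 0.938 CPM in SPF and 17.1 ± 1.78 CPM in CVT pools. For Gpi1 it was 0.08 ± 0.10, for Pgam1 0.07 ± 0.095, for Ldha 0.03 ± 0.11, for Aldoa -0.01 ± 0.088 and for Pkm -0.01 ± 0.081. With every class given the same share in each pool, Pgam1 turned from 0.07 to -0.05 and Ldha from 0.03 to -0.01.

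In all, 7 of the 10 members were lower in CVT pools, beside 53.5% of all genes tested. The median log2 fold change was -0.06 over the members and -0.01 over all genes. No member had every CVT pool below every SPF pool, which 5.26% of all genes had.

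**Figure D4:**
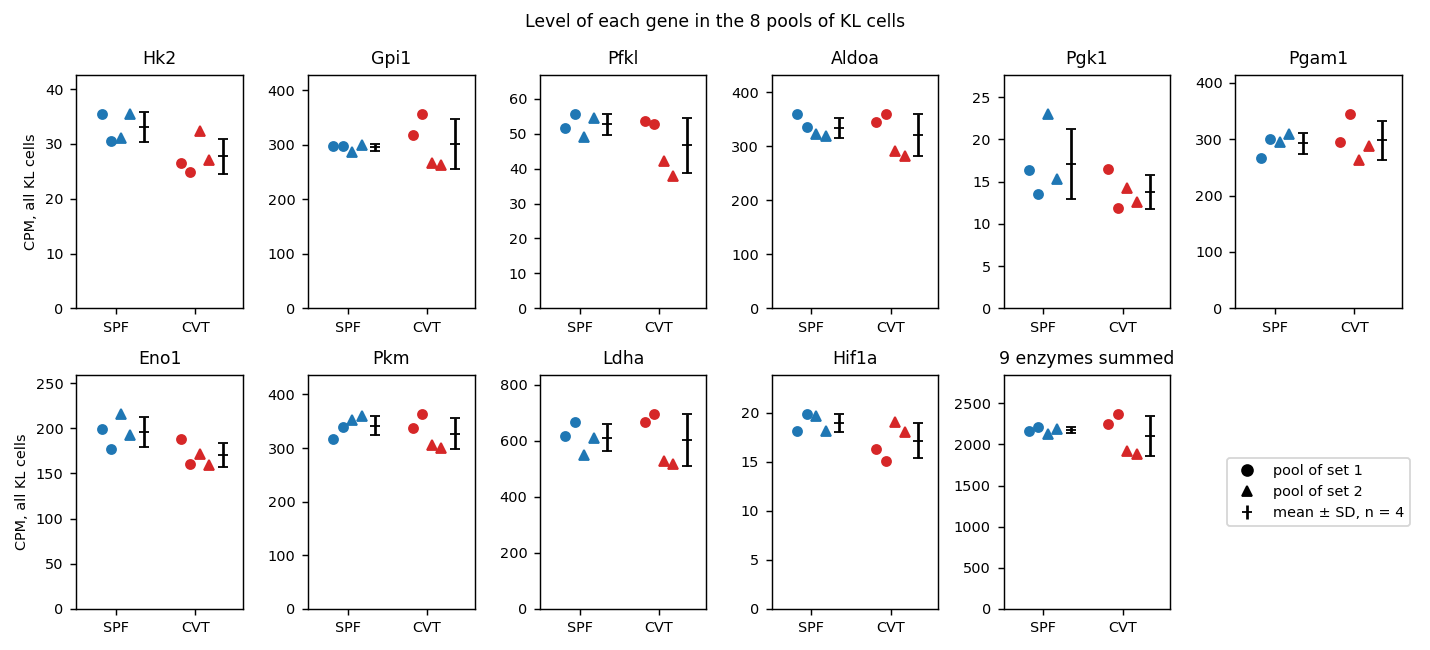
Level in CPM of each gene and of the 9 enzymes summed in all KL cells of the 8 pools; circles are pools of set 1, triangles pools of set 2, and the bar gives the mean ± SD of 4 pools per group. For Gpi1, Pfkl, Aldoa, Pkm, Ldha and the summed enzymes the 2 CVT pools of set 2 are the lowest of all, at 1916 and 1887 CPM for the sum, while for Hk2, Pgk1, Pgam1, Eno1 and Hif1a they are not.

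The sets of mice went apart. The 9 enzymes summed had 2159, 2216, 2125 and 2192 CPM in SPF pools 1, 2, 7 and 8 and 2247, 2373, 1916 and 1887 CPM in CVT pools 3 to 6. The SPF pools lay close together, while CVT pools lay above both SPF pools in set 1 (by 122 CPM on average) and below both in set 2 (CVT minus SPF, -257 CPM). CVT pools 5 and 6 were the lowest 2 pools of the summed enzymes in all KL cells and in each of the 10 classes. These populations share the same libraries and are not independent.

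The test of housing by set in edgeR gave the same direction for 8 of 10 members in KL cells, with CVT over SPF lower in set 2 than in set 1. The difference between the sets was -0.41 ± 0.11 on the log2 scale for Pfkl, -0.39 ± 0.10 for Gpi1 and -0.38 ± 0.098 for Pkm. None passed adjustment over 13092 genes (lowest edgeR adjusted p 0.534). An unadjusted p under 0.05 was found for 6 of 10 members, beside 9.07% of all genes, and the fold change was lower in set 2 for 49.1% of all genes. The members move with each other, so they are not separate repeats. Hk2 (0.12 ± 0.15) and Hif1a (0.20 ± 0.12) went the opposite way. In MEP-like cells 7 of 10 members had an unadjusted p under 0.05 (8.05% of all genes), Pfkl with a set difference of -0.61 ± 0.14 and an edgeR adjusted p of 0.573. Hk2 was among these 7 but went the opposite way there (0.71 ± 0.30). In GMP-like cells it was 3 members (6.61% of all genes). Of these, Gpi1 was lower in set 2 (-0.34 ± 0.13), while Hk2 (0.53 ± 0.25) and Hif1a (0.71 ± 0.29) went the opposite way. In LTHSC-like cells it was 1, Pfkl (-0.67 ± 0.33), beside 6.37% of all genes. Every pool went in opposite directions in the sets for 1 member in KL (5.96% of all genes) and LTHSC-like cells (6.02%), 3 in MEP-like (7.93%) and 2 in GMP-like cells (6.52%). Globin genes took 0.0134% to 0.0174% of UMIs in set 1 and 0.155% to 0.450% in set 2, in pools of both groups, and CVT pool 4 had the most UMIs per cell. Mitochondrial genes took 2.90% and 3.14% in CVT pools 5 and 6 and 2.70% to 2.89% in the other 6 pools. Their part in the set difference was not tested.

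Within the classes no member passed adjustment either (lowest edgeR adjusted p 0.770, for Eno1 in late granulocyte-like cells). Percent called over all genes was 0 in 9 classes and 0.0163 in basophil or mast-like cells. The largest number of classes with the same direction was that of Eno1. It was lower in CVT pools in 10 of 10 classes, by log2 fold changes from -0.07 in CMP-like to -0.34 ± 0.12 in late granulocyte-like cells, and Eno1b, its near copy, was not added to it. Pgk1 was lower in 9 of the 9 classes where it passed the filter on low counts (-0.11 to -0.48), Hk2 and Pfkl in 9 of 10, Ldha and Aldoa in 8 of 10. Gpi1 was lower in 3 of 10, Pgam1 in 4, Pkm in 5 and Hif1a in 7. The classes of a pool share a library and its depth, so these are not repeats of a result. How many of all genes were lower in as many classes is not given here, so these counts have no background beside them.

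In 7 pairs of gene and class every CVT pool was below every SPF pool. Eno1 had 3 of them. In late granulocyte-like cells it had 325, 314, 363 and 332 CPM in the SPF and 300, 271, 271 and 281 CPM in the CVT pools, where 1.15% of all genes had such an order. In LMPP-like cells it had 161, 147, 150 and 153 against 134, 124, 134 and 129 CPM (log2 fold change -0.17 ± 0.081, 2.84% of all genes). In basophil or mast-like cells it had 201, 166.9, 149.5 and 167.1 against 138.5, 136.1, 137.7 and 123.3 CPM (log2 fold change -0.25 ± 0.11, 2.85% of all genes).

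In MEP-like cells 2 of the 10 members were so ordered, where 1.99% of all genes were. Pgk1 had 11.04, 10.84, 15.86 and 11.75 CPM in the SPF and 10.68, 8.21, 7.24 and 7.34 CPM in the CVT pools, and its log2 fold change was -0.48 ± 0.16 (edgeR adjusted p 0.905). Hk2 had 11.2, 8.15, 7.36 and 7.69 against 6.25, 4.59, 7.35 and 7.16 CPM, with -0.44 ± 0.18 as its log2 fold change (adjusted p 0.905), and the closest pools, SPF 7 and CVT 5, were level. Both genes were near their lowest level of all classes there, with 26 to 205 UMIs a pool.

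Pgam1 in LTHSC-like cells had 166.7, 191.3, 180.9 and 189.5 CPM in the SPF and 152.2, 140.5, 157.5 and 143.2 CPM in the CVT pools. Its log2 fold change was -0.25 ± 0.11 (adjusted p 0.871; 2.23% of all genes were so ordered). All 10 members had a negative fold change in these cells, with a median of -0.11 beside 0.01 over all 6830 genes tested, of which 48.4% were negative, but without CVT pool 5 it was 6 of the 9 members then tested. Hif1a had its largest difference here: 35.4, 27.8, 44.2 and 28.9 CPM in the SPF and 31.6, 2.87, 17.0 and 23.1 CPM in the CVT pools. The groups overlapped, the log2 fold change was -0.66 ± 0.29 (adjusted p 0.874), and it was -0.47 without CVT pool 4, which had 1 UMI. These pools held 56 (CVT pool 4) to 292 (SPF pool 8) LTHSC-like cells.

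In monocyte-like cells Hif1a had 20.7, 21.6, 20.7 and 20.9 CPM in the SPF and 15.75, 17.87, 18.995 and 18.29 CPM in the CVT pools. Its log2 fold change was -0.21 ± 0.084 (adjusted p 0.799), and 3.16% of all genes showed that order. No member was so ordered in MPP-like (3.99% of all genes), CMP-like (2.81%), megakaryocyte-like (2.10%) or GMP-like cells (2.14%). The opposite order, every CVT pool above every SPF pool, was held by no member in any class, beside 0.624% to 1.44% of all genes.

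**Figure D5:**
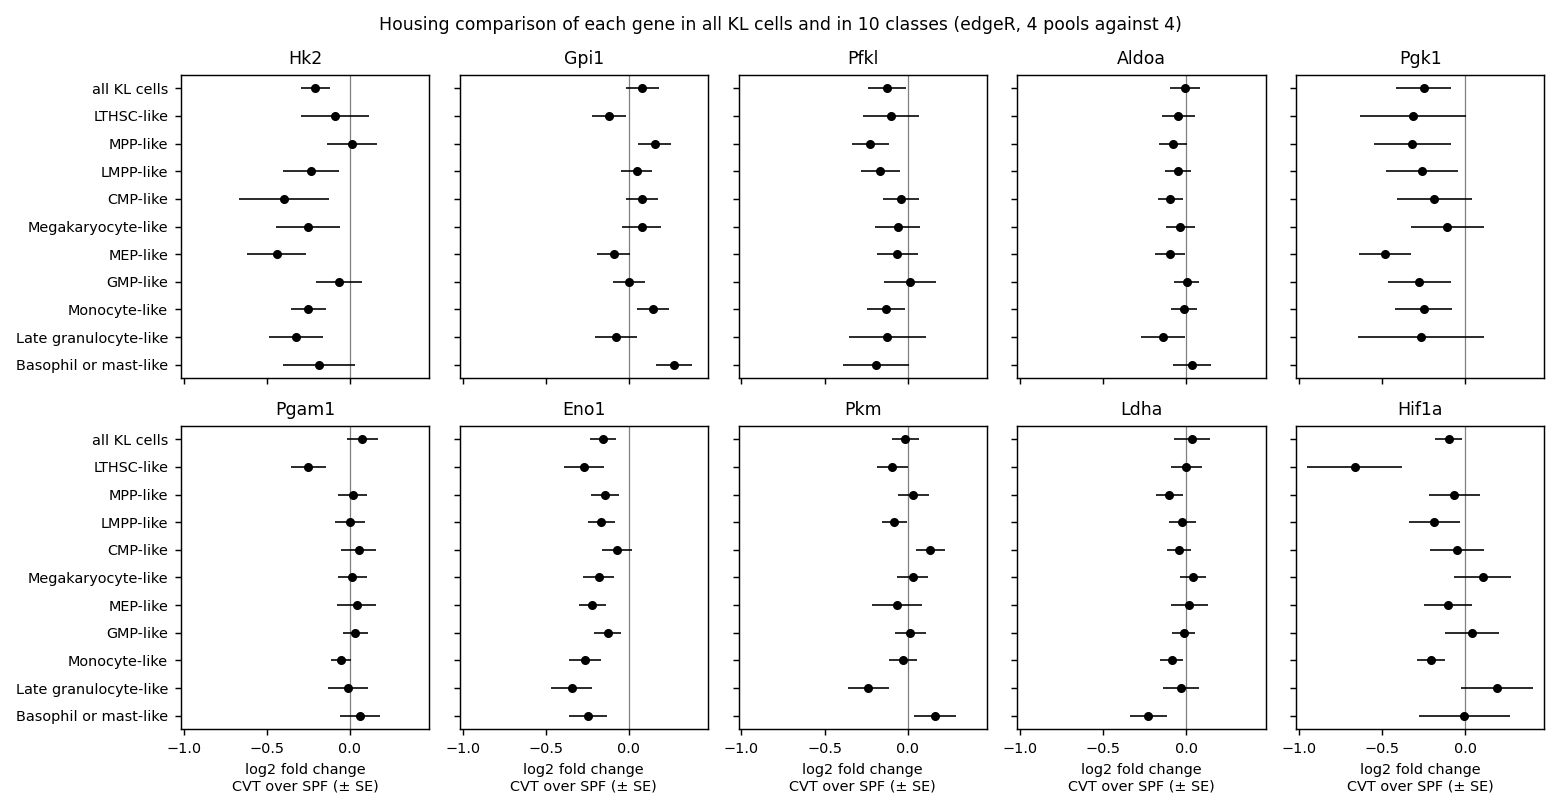
Log2 fold change of CVT over SPF pools (horizontal axis, ± SE, edgeR, 4 pools against 4) of each gene in all KL cells and in 10 classes (vertical axis). The points of Eno1 and Pgk1 lie left of 0 in every row shown, and the widest departure is that of Hif1a in LTHSC-like cells (-0.66); no value passed adjustment over all genes.

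The other genes of the pathway gave no call in KL cells in any of 10 further lists, and the counts at unadjusted p under 0.05 follow for the edgeR test. Over all genes tested, 2.99% were higher and 4.04% lower by that p. Tpi1 and Gapdh, the enzymes of the 2 steps without a member, had 0 of 2, with log2 fold changes of 0.06 ± 0.095 and 0.19 ± 0.12. Of the isozymes, 0 of 9 passed, and Pklr had the largest value of those above 10 CPM (0.47 ± 0.25, 11.6 ± 2.51 CPM in CVT and 8.71 ± 3.12 in SPF pools), while Hk1, Hk3, Pfkm, Pfkp and Ldhb lay between -0.07 and 0.10. The transporters had 0 of 8 and the genes of fructose bisphosphate control 0 of 6, with Bsg, the chaperone of lactate carriers, at 0.06 ± 0.079 and Pfkfb3 at 0.09 ± 0.16.

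The genes for the entry, use and control of pyruvate in the mitochondria had 0 of 12, and Mpc1, a subunit of the pyruvate carrier, was at 0.12 ± 0.056. The pentose phosphate pathway had 1 of 8, Pgls, at 0.16 ± 0.069 (edgeR adjusted p 0.697). Among HIF partners and oxygen sensors 1 of 11 was lower (Hif3a, a HIF relative). Of HIF targets outside glycolysis, 1 of 18 was higher (Ero1l) and 3 were lower (Bnip3, Ddit4 and Ndrg1), and the most abundant genes of that list, Mif, Higd1a and Bnip3l, had log2 fold changes of 0.11, 0.04 and -0.07. Growth regulators had 1 of 7 lower, Meis1, a factor known to act on Hif1a in stem cells, at -0.19 ± 0.070 (adjusted p 0.676). Of the S and G2/M genes, 2 of 18 were higher (Ccnb2 and Ube2c). Genes in brackets are named for their p and not by a rule, and none passed adjustment.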

How the data were processed

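The authors sequenced 3′ libraries of KL cells from 8 pools of mice and deposited UMI counts per gene and cell, made with Cell Ranger (its version is not given in the sources used here). The labels' processing notes name mm9. The deposited counts were taken as they are. The genes and lists were chosen with earlier results of these data known. Cells were clustered with scanpy 1.11.5 (1000 variable genes, 30 components, Leiden resolution 2) after 35 pathway genes were set aside, and a class was named from at least 3 detected markers. Each column of the table was 1 cell, and all columns belonged to the 8 pools.

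Counts were summed per pool, for all KL cells and for each class, and CVT and SPF pools compared with edgeR 4.0.16 (quasi-likelihood, TMM, filterByExpr), with Benjamini-Hochberg adjustment over all genes tested at a threshold of 0.05. Its p-values measure the spread between pools of different mice. DESeq2 1.42.0 was an alternative. Single levels were compared by a two-sided exact permutation test over 70 regroupings. Class comparisons carry no test. Pools held 19041749 to 59812346 UMIs. The code was tested on simulated data. All 10 members, the 2 missing steps, isozymes of at least 10 CPM and the 3 most abundant genes of every other list were named by rule. Alternatives were size factors, filters, the set as a block, single pools left out, a cell filter, equal class shares, another denominator, UMIs per cell and a coarser clustering.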

Additional observations from a re-analysis of the deposited data

Results flagged for a closer look

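A single pool stood far from the other 3 of its group in 2 of 42 comparisons of this kind, a rate that chance alone gives in about 1 in 20. Gpi1 in the SPF pools of KL cells was at 286 CPM in pool 7 and at 297 to 298 CPM in the other 3. The 9 enzymes summed were at 1945 CPM in SPF pool 7 of the megakaryocyte-like cells.

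The sets of mice moved in opposite directions, in every pool, for 9 of the 44 values of the members and their sum compared in KL, LTHSC-like, MEP-like and GMP-like cells. The other 7 classes were not compared in this way. Of all genes tested, 5.96% in KL, 6.02% in LTHSC-like, 7.93% in MEP-like and 6.52% in GMP-like cells were so ordered. The difference of CVT minus SPF was -27.7 CPM in set 2 and 39.7 CPM in set 1 for Gpi1 in KL cells, and -257 and 122 CPM for the 9 enzymes summed. In LTHSC-like cells it was -19.0 and 10.9 CPM for Pfkl. In MEP-like cells it was -11.6 and 5.78 CPM for Pfkl, -79.6 and 79.1 CPM for Ldha, -228 and 87.6 CPM for the summed enzymes, and 1.11 and -2.39 CPM for Hif1a. In GMP-like cells it was 6.30 and -17.9 CPM for Hk2 and 7.02 and -5.75 CPM for Hif1a. The edgeR interaction of housing with set gave adjusted p between 0.534 and 0.775 for the single genes, and the difference was not tested for the 2 sums.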

How the results depend on the processing

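No paired analysis was possible because the pools hold different mice and the labels match no CVT pool to an SPF pool. The set of mice was fitted as a block among the alternatives. No member passed adjustment in any of 1339 alternative values over KL cells and the 10 classes (lowest adjusted p 0.124, for Eno1 in monocyte-like cells by DESeq2). Of 246 alternative values of 18 member results, 228 kept their direction and 18 turned, all in KL cells: Aldoa with other size factors, DESeq2 (0.0032 and 0.0033) and the reduced denominator (0.00098), and Pgam1 (-0.052) and Ldha (-0.013) with equal class shares, and the rest with single pools left out. There Gpi1 ran from -0.022 to 0.144, Aldoa from -0.081 to 0.048, Pgam1 from -0.015 to 0.137, Pkm from -0.079 to 0.026 and Ldha from -0.056 to 0.10.

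Genes called over the whole table, with 0 in the main test but 1 in basophil or mast-like cells, numbered 30 in KL cells by DESeq2 and 4 with the set as a block. Without the filter on low counts they numbered 21 in LTHSC-like, 37 in MPP-like, 28 in LMPP-like, 27 in CMP-like, 66 in megakaryocyte-like, 2 in MEP-like, 21 in GMP-like, 35 in late granulocyte-like and 29 in basophil or mast-like cells. DESeq2 called 1 each in CMP-like, megakaryocyte-like and MEP-like and 14 in monocyte-like cells, and other size factors 1 in megakaryocyte-like cells. The set as a block gave 3 in MPP-like, 8 in CMP-like, 2 in megakaryocyte-like and 5 in basophil or mast-like cells. Without single pools the counts were 0 to 2 in MPP-like and GMP-like, 0 to 5 in LMPP-like and CMP-like, 0 to 7 in megakaryocyte-like and 1 to 5 in basophil or mast-like cells.

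The summed enzymes over the LTHSC-like level, counted per cell, were 1.96 in MPP-like, 1.34 in LMPP-like, 0.752 in CMP-like, 1.57 in megakaryocyte-like, 2.09 in MEP-like, 4.46 in GMP-like, 3.71 in monocyte-like, 2.03 in late granulocyte-like and 1.29 in basophil or mast-like cells. Coarser clusters gave 0.972 in LMPP-like, 0.992 in megakaryocyte-like, 1.38 in monocyte-like and 1.31 in late granulocyte-like cells. The reduced denominator gave 1.59 in GMP-like, 1.40 in monocyte-like and 0.968 in late granulocyte-like cells. The doublet alternative was not run, because the caller marked only 92 of 29891 cells. With 4 pools a group, the standard errors given beside the fold changes set what could be seen.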
